A study of Sus scrofa with 3 samples.

Results

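The miRNAs described here are the 4 mature members of the paired hairpin clusters mir-192/mir-194a and mir-215/mir-194b, taken by name from the deposited counts: ssc-miR-192, ssc-miR-194a, ssc-miR-194b-5p and ssc-miR-215. Each name had 1 precursor, so the 4 members took 4 of the 486 deposited rows and 4 of the 405 miRNAs left after names that repeat another name's reads were removed. All 4 passed the minimum of a mean of 10 counts per 1000000 reads (CPM) and were among the 208 miRNAs compared between breeds. Small RNA came from the liver of male pigs (Sus scrofa) at postnatal day 90, with 1 library each from the Enshi black pig (a domestic breed of China), the Large White pig (a commercial breed of European origin) and the Chinese wild boar. The labels speak of 3 pigs in all and do not mention pooling. No treatment or genetic change is named for any of them. With 1 library per breed there was no estimate of the spread between animals, so no test was made. Every difference is between 1 library and another, and each 95% interval covers counting error only. PCR reads without molecular identifiers are not independent molecules, so these intervals can be too narrow even for counting error.

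miRNAs are short RNAs cut from hairpin precursors that guide Argonaute proteins to messenger RNAs, mostly through the seed, a short stretch near the 5′ end. miR-192 and miR-215 share a seed and miR-194a and miR-194b-5p form a second seed family, so each of the clusters encodes 1 member of each family. The clusters are known from liver, intestine and kidney epithelium, where their transcripts depend on hepatocyte nuclear factors, and miR-192, miR-194 and miR-215 are also known as targets of the tumour suppressor p53. In the RefSeq gene table of Sscrofa 11.1, used here only for the order of genes, all 4 precursors were found. MIR194A and MIR192 stood next to each other between ATG2A and EHD1, and MIR215 and MIR194B stood next to each other between IARS2 and RAB3GAP2.

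The libraries held 7730934 (Enshi black), 7343033 (Large White) and 7824836 (wild boar) miRNA reads. miR-122, the defining miRNA of hepatocytes, took 34.2%, 41.4% and 39.5% of them in that order, more than any other miRNA. Levels are given as CPM of the library total and as CPM scaled by TMM (the trimmed mean of M-values), which takes most miRNAs to be alike in all libraries. TMM moved the log2 ratio of every miRNA by −0.64 for Enshi black over Large White, by −0.48 for wild boar over Large White and by −0.16 for Enshi black over wild boar. On library totals the median log2 ratio of the 208 miRNAs came to 0.60, 0.46 and 0.15 in those pairs, against −0.04, −0.02 and −0.01 after TMM. Read counts of different miRNAs also carry ligation and amplification differences between sequences, so a ratio of 2 miRNAs is compared here between libraries and not read as a ratio of molecules.

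The 4 miRNAs together held 6.86% of the reads in Enshi black liver (Clopper-Pearson interval 6.84 to 6.88), 9.39% in Large White liver (9.37 to 9.41) and 7.89% in wild boar liver (7.88 to 7.91). Nearly all of this came from the mir-192/mir-194a cluster, whose miRNAs made up 99.6%, 99.5% and 99.7% of the members' reads in the same order. The share was highest in the Large White and lowest in the Enshi black library.

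miR-192 was read 268331.5 times in Enshi black, 383578 times in Large White and 292149.5 times in wild boar liver. This was 34709, 52237 and 37336 CPM of the library total, or 28885, 67630.3 and 34653 CPM after TMM. Among the miRNAs with a count it ranked 5 of 311, 3 of 304 and 5 of 307. The Large White library was the high one on both scales, and the Enshi black library was the lowest on both. The log2 ratio to the Large White library after TMM was −1.23 for the Enshi black library (−1.23 to −1.22) and −0.96 for the wild boar library (−0.97 to −0.96). On library totals the same ratios were −0.59 and −0.48, both under 2-fold.

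miR-215, the second miRNA with this seed, was far scarcer, with 1412.5, 2371 and 1062.5 reads in Enshi black, Large White and wild boar livers. It stood at 183 CPM of the library total in Enshi black (173 to 192), 323 CPM in Large White (310.03 to 336) and 136 CPM in wild boar liver (128 to 144), and at 152, 418 and 126 CPM after TMM. Its rank was 117, 92 and 123. The order was Large White, Enshi black, wild boar, which differs from the order of miR-192 in its last places. The log2 ratio of miR-215 to the Large White library after TMM was −1.46 in Enshi black liver (−1.56 to −1.36) and −1.73 in wild boar liver (−1.84 to −1.63). On library totals these were −0.82 (−0.92 to −0.73) and −1.25 (−1.36 to −1.15). The Enshi black library stood above the wild boar library by 0.27 after TMM (0.16 to 0.39) and by 0.43 on library totals (0.31 to 0.54), so miR-215 was the 1 member of the 4 with a positive ratio in that pair on both scales.

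Counts of miR-192 and miR-215 both ended in 0.5 in the Enshi black and wild boar libraries and in whole numbers in the Large White library, while their sum was whole in all 3. Such fractions arise where a read that matches more than 1 name is divided. Another 5 names (miR-10a-5p, miR-27a, miR-27b-3p, miR-374a-5p and miR-374b-5p) had the same pattern of fractions, so these alone do not show which names shared a read. The number of shared reads is not given in the files. The whole count of miR-215 came to 0.526%, 0.618% and 0.364% of that of miR-192 in Enshi black, Large White and wild boar livers, so an even division of reads shared by these names could add no more than that to the miR-192 count. The same sharing could make up any part of the miR-215 count, and its levels depend on how the authors divided the reads.

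miR-194a, cut from the hairpin beside mir-192, was read 260081 times in Enshi black, 302541 times in Large White and 323801 times in wild boar liver. All 3 counts were whole, as were those of miR-194b-5p, so neither name shows a divided read. Its levels were 33642, 41201 and 41381 CPM of the library total and 27997, 53342 and 38407 CPM after TMM, at rank 6, 5 and 4. The wild boar and Large White levels were indistinguishable within counting error on library totals, with a log2 ratio of 0.01 (−0.0009 to 0.013), but TMM put the wild boar level at −0.47 (−0.48 to −0.47). The Enshi black library was the low one on both scales, with a log2 ratio to the Large White library of −0.93 after TMM (−0.94 to −0.92) and −0.29 on library totals (−0.30 to −0.28).

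miR-194b-5p, from the hairpin beside mir-215, had 674, 774 and 750 reads in Enshi black, Large White and wild boar livers. This was 87.2 CPM of the library total (80.7 to 94.02), 105 CPM (98.1 to 113) and 95.8 CPM (89.1 to 103), or 72.6, 136 and 89.0 CPM after TMM. On library totals the wild boar level overlapped both neighbours, with log2 ratios of −0.14 to the Large White library (−0.28 to 0.01) and of −0.14 for Enshi black over wild boar (−0.29 to 0.02). The Enshi black and Large White levels were apart, at −0.27 on library totals (−0.42 to −0.12) and −0.91 after TMM (−1.06 to −0.76). The other arm of this hairpin, miR-194b-3p, had 0 reads in each library. A count of 0 was taken to allow up to 3 reads, or 0.388, 0.409 and 0.383 CPM of the library total in Enshi black, Large White and wild boar livers. The 5p count was at least 224, 258 and 250 times those 3 reads in the same order. The counting error of the 5p count was left out of these values, which are ratios of reads and not of molecules. The other 3 hairpins had 1 named arm each.

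**Figure D1:**
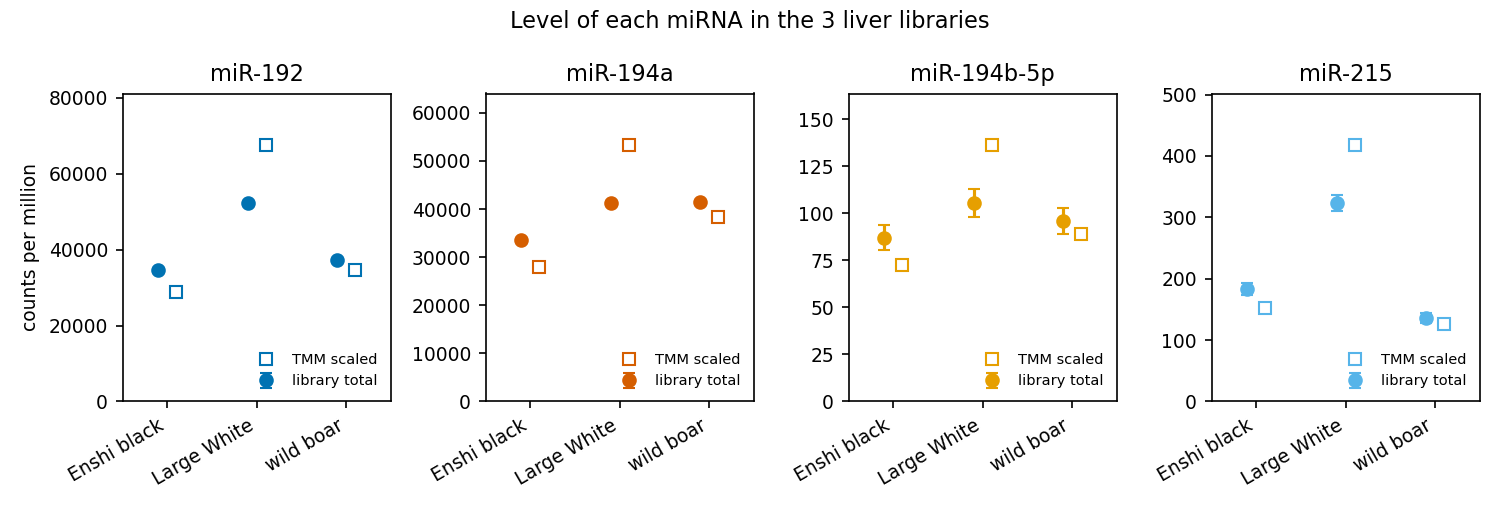
Counts per 1000000 reads (CPM) of each of the 4 miRNAs in the 3 liver libraries, as CPM of the library total (filled circles, bars give the exact 95% counting interval) and after TMM scaling (open squares, no bars); each axis starts at 0. miR-192 and miR-215 were highest in the Large White library on both scales, while miR-194a stood at 41201 and 41381 CPM of the library total in the Large White and wild boar libraries.

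A ratio of 2 counts from the same library needs no scaling between libraries. Reads of miR-192 per read of its neighbour miR-194a came to 1.03 in Enshi black (1.026 to 1.04), 1.27 in Large White (1.26 to 1.27) and 0.902 in wild boar liver (0.898 to 0.907). Reads of miR-215 per read of its neighbour miR-194b-5p came to 2.09 in Enshi black (1.91 to 2.30), 3.06 in Large White (2.82 to 3.33) and 1.42 in wild boar liver (1.29 to 1.56). In both clusters the member of the family of miR-192 and miR-215 was thus highest against its neighbour in the Large White library and lowest in the wild boar library.

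The step between libraries was larger in the scarcer cluster. The miR-192 to miR-194a ratio was 1.41 times higher in Large White than in wild boar liver (Woolf 95% interval 1.40 to 1.41) and 1.23 times higher than in Enshi black liver (1.22 to 1.24). The miR-215 to miR-194b-5p ratio was 2.16 times higher in Large White than in wild boar liver (1.91 to 2.45) and 1.46 times higher than in Enshi black liver (1.29 to 1.65). Because miR-192 and miR-215 can share reads, the ratios of both clusters are not independent of each other. Summed over both clusters, the seed family of miR-192 and miR-215 had 1.03 reads per read of the miR-194 family in Enshi black, 1.27 in Large White and 0.903 in wild boar liver, which are close to the values of miR-192 and miR-194a alone since those hold nearly all reads.

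Within the seed families, the ratio differed more between libraries for miR-192 and miR-215 than for the miR-194 pair. miR-192 was read 190.04 times as often as miR-215 in Enshi black (180.4 to 200.4), 162 times in Large White (155 to 169) and 275 times in wild boar liver (259 to 292). That ratio was 1.70 times higher in wild boar than in Large White liver (1.58 to 1.83) and 1.45 times higher than in Enshi black liver (1.34 to 1.57). miR-194a was read 386 times as often as miR-194b-5p in Enshi black (358 to 417), 391 times in Large White (364 to 420.0) and 432 times in wild boar liver (402 to 464). The wild boar value was 1.10 times the Large White one (0.999 to 1.22) and 1.12 times the Enshi black one (1.01 to 1.24), and only the second of these intervals leaves out 1.

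**Figure D2:**
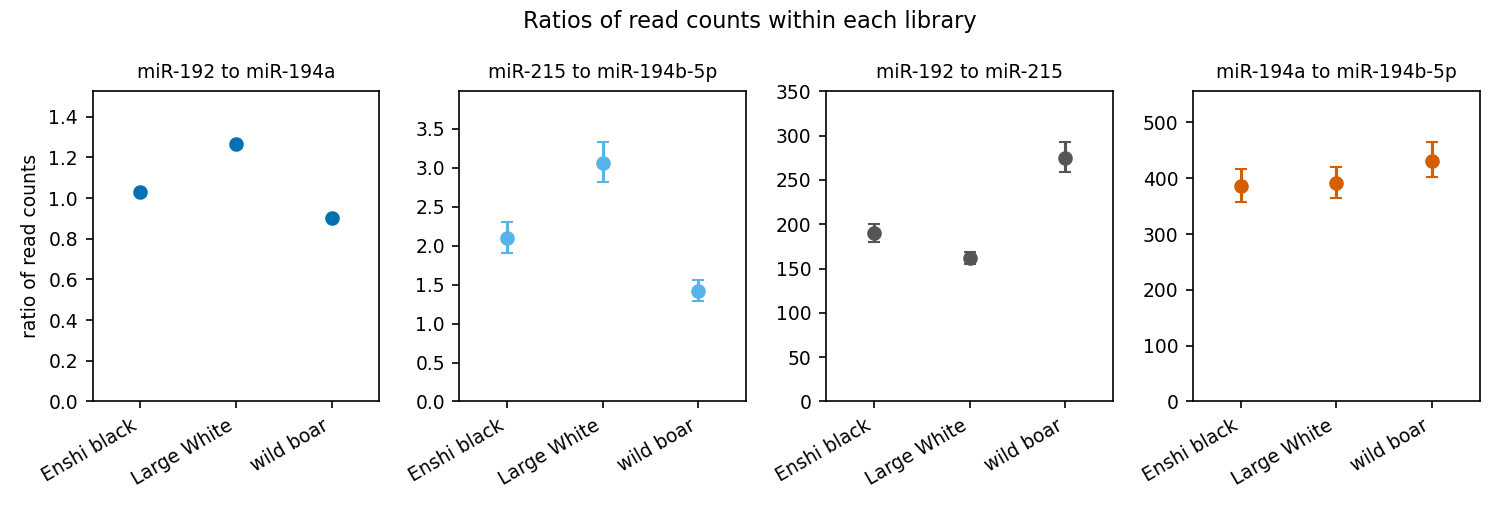
Ratios of read counts within each library for neighbours in a cluster (miR-192 to miR-194a, miR-215 to miR-194b-5p) and for members of a seed family (miR-192 to miR-215, miR-194a to miR-194b-5p); bars give exact 95% counting intervals, smaller than the points in the first panel, and each axis starts at 0. Both cluster ratios were highest in the Large White and lowest in the wild boar library, and the miR-194a to miR-194b-5p ratio lay between 386 and 432.

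Set against Large White liver, 2 of the 4 members, miR-192 and miR-215, passed the 2-fold rule in Enshi black liver after TMM (at least 2-fold lower, with the interval clear of 1), and none was higher. Over all 208 miRNAs, 10.1% were lower by the same rule. On library totals 0 of the 4 members were 2-fold lower, beside 2.88% of all miRNAs. In the wild boar against the Large White library, miR-215 was the 1 member past 2-fold, beside 13.5% of all miRNAs that were lower after TMM, and it was also past 2-fold on library totals, beside 9.13%. miR-192 was just under 2-fold in this pair, at −0.96. Between the Enshi black and wild boar libraries 0 of the 4 members were 2-fold apart in either direction, beside 12.5% of all miRNAs after TMM and 10.6% on library totals. With 4 members, a single miRNA moves these shares by a large step, so they are given as counts only.

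The place of a miRNA among the log2 ratios of a pair does not depend on the scaling. Counted from the lowest ratio of Enshi black over Large White among 208 miRNAs, miR-215 was at place 9, miR-192 at 13, miR-194a at 22 and miR-194b-5p at 26. For wild boar over Large White the places were 12 for miR-215, 32 for miR-192, 50 for miR-194b-5p and 64 for miR-194a. For Enshi black over wild boar they were 37 for miR-194a, 56 for miR-194b-5p, 59 for miR-192 and 151 for miR-215. All 4 thus lay in the lower part of the distribution in both pairs with the Large White library, which is a shared sample of those pairs.

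**Figure D3:**
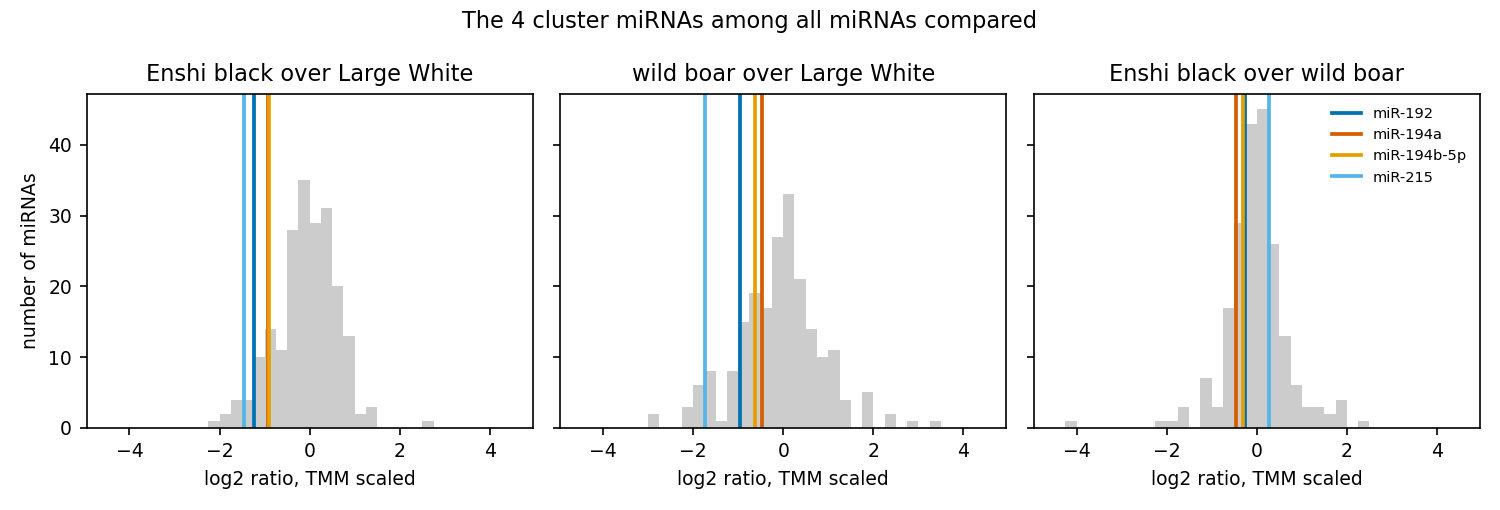
Histograms of the log2 ratio after TMM scaling over all 208 miRNAs compared, one panel per pair of libraries, in bins of a common width, with vertical lines at the 4 cluster miRNAs. The lines lie left of 0 in both pairs with the Large White library, and miR-215 is furthest left at −1.46 and −1.73.

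Set against miR-122, miR-192 and miR-215 lay below both miR-194 members in each pair with the Large White library, a shared sample of those pairs. For wild boar over Large White, miR-215 at −1.18 lay further from miR-192 at −0.42 than miR-192 lay from either miR-194 member. Those were at 0.07 (miR-194a) and −0.07 (miR-194b-5p). A scaling moves all members of a pair together, so these gaps are the same on every scale. For Enshi black over wild boar this order of the families did not hold. There miR-215 stood apart at a log2 ratio of 0.64, with miR-192 at 0.10, miR-194b-5p at 0.07 and miR-194a at −0.09. Per 1000 reads of miR-122 there were 98.3, 99.5 and 105 reads of miR-194a and 0.255, 0.255 and 0.243 reads of miR-194b-5p in Enshi black, Large White and wild boar livers. miR-192 had 101 reads per 1000 of miR-122 in Enshi black, 126 in Large White and 94.5 in wild boar liver. For miR-215 the values were 0.534, 0.780 and 0.344. On this scale, which was chosen after seeing the data, the log2 ratio of miR-194a was −0.02 for Enshi black over Large White and 0.07 for wild boar over Large White. That of miR-215 was −0.55 and −1.18, and that of miR-192 was −0.31 and −0.42. The order of miR-215 over the libraries was the same as under the other scalings, whereas miR-192 was higher in Enshi black than in wild boar liver here, at 0.10 on the log2 scale, and lower under every other scaling.

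**Figure D4:**
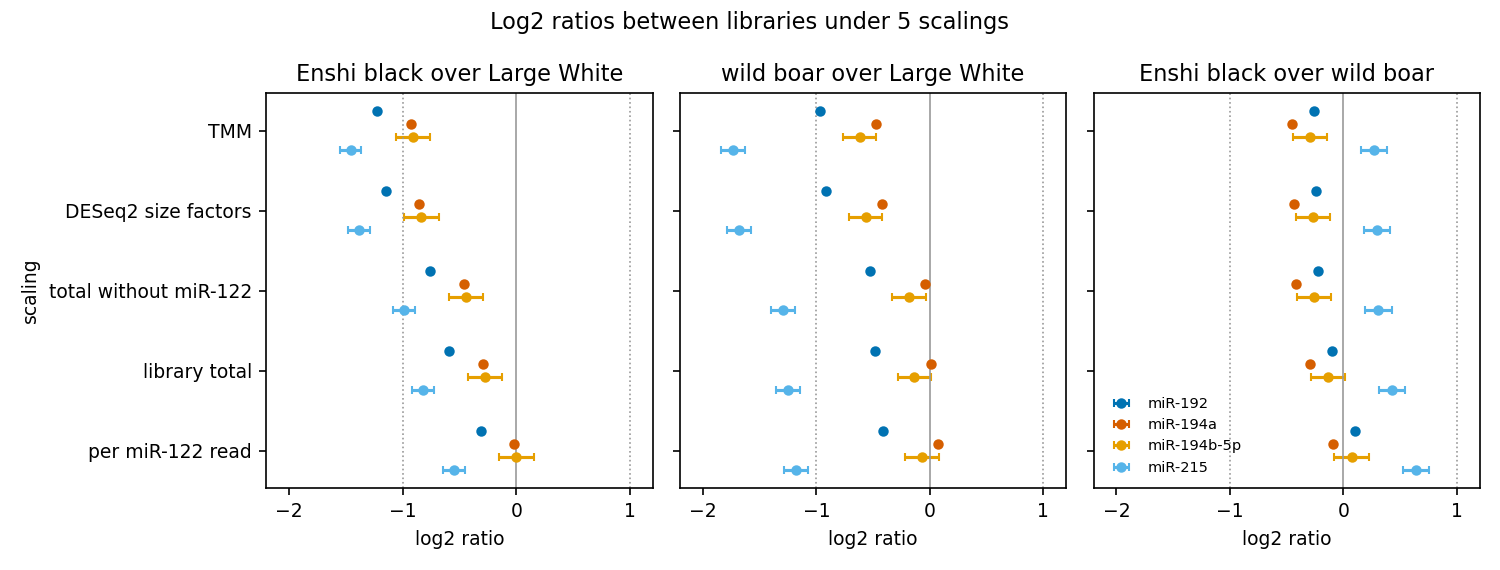
Log2 ratios of the 4 miRNAs between 2 libraries under 5 of the scalings, one panel per pair; points are ratios, bars exact 95% counting intervals, the solid line marks 0 and the dotted lines mark 2-fold. A scaling moves all miRNAs of a pair together, so miR-215 stays left of the other members in both pairs with the Large White library, from −1.46 to −0.55 for Enshi black and from −1.73 to −1.18 for wild boar.

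The miRNAs most like each member over the 3 libraries were found by the root mean square (RMS) difference of log2 CPM after centring, among the miRNAs with a mean of at least 100 CPM. This is a description over 3 libraries. miR-194b-5p fell below that minimum, so it was not among the miRNAs from which the nearest of the other members were named. For miR-194a the nearest of 129 miRNAs was miR-122, with an RMS difference of 0.0396, followed by miR-7134-3p at 0.0627, miR-32 at 0.109, miR-378 at 0.133 and miR-22-5p at 0.174, against a median of 0.476. For miR-194b-5p the nearest was also miR-122, at 0.0328, followed by miR-378 at 0.0703 and then miR-194a, its own family member, at 0.0724, with miR-7134-3p and miR-22-5p next at 0.0947 and 0.108. For miR-192 the nearest were miR-22-5p at 0.0916, miR-32 at 0.156, miR-122 at 0.177, miR-378 at 0.194 and miR-194a at 0.202.

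miR-215 had other neighbours than the rest. Its nearest were miR-101 at 0.137, miR-22-3p at 0.161, miR-144 at 0.170, miR-542-3p at 0.218 and miR-19a at 0.230. miR-192 lay 0.318 from miR-215, while miR-194b-5p from the same cluster lay at 0.454 and miR-194a at 0.512. The median over the miRNAs compared with miR-215 was 0.768. miR-215 was thus nearer to the miRNA of its seed than to the miRNA of its own cluster. Between these choices it was the other way round for miR-192, with miR-194a of its cluster at 0.202 and miR-215 at 0.318. However, miR-194b-5p, which shares neither the cluster nor the seed of miR-192, lay nearer to miR-192 than miR-194a did. The distances of miR-192 thus do not single out its own cluster. How far divided reads of miR-192 and miR-215 bear on the distance between them was not tested.

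Markers of hepatocytes and of other cells also differed between these libraries. In bulk tissue, fewer cells of a type and less RNA per cell cannot be told apart. All sums below are in the order Enshi black, Large White, wild boar, first after TMM and then on library totals. The 2 hepatocyte miRNAs, miR-122 and miR-885-5p, summed to 284715, 536153 and 366642 CPM after TMM and to 342123, 414119 and 395033 CPM on totals, so the Large White library was highest on both scales but by less on totals. miR-885-5p alone was at 46.3, 129.9 and 68.9 CPM after TMM. The leucocyte list, with 5 of 6 entries found, summed to 10877, 20807 and 3651 CPM after TMM and to 13070.1, 16071 and 3933 CPM on totals. Most of that sum was miR-142-3p, at 8054, 16873 and 2346 CPM after TMM. For Enshi black over Large White it had log2 ratios of −1.07 after TMM and −0.43 on library totals, while miR-150 was at 0.18 and 0.81. On library totals the other leucocyte markers in that pair were at 0.57 (miR-146a-5p), 0.08 (miR-142-5p) and 0.01 (miR-155-5p). The median over all miRNAs on that scale was 0.60. After TMM the same markers were at −0.07, −0.56 and −0.62, beside a median of −0.04. For wild boar over Large White 4 of the 5 entries were 2-fold lower after TMM, beside 13.5% of all miRNAs. On library totals 3 were, beside 9.13%. For Enshi black over wild boar 4 were 2-fold higher on either scale, beside 12.5% after TMM and 10.6% on totals of all miRNAs apart in either direction. The red cell list (3 of 3) summed to 4114, 5324 and 3114 CPM after TMM, with the Large White library highest, and to 4944, 4112 and 3356 CPM on totals, with the Enshi black library highest. Its entries were not alike. For Enshi black over Large White miR-144 had log2 ratios of −1.21 after TMM and −0.57 on totals. In that pair miR-451 was at −0.13 and 0.50, and miR-486 at −0.15 and 0.48. For wild boar over Large White miR-144 was at −1.89 and −1.41, miR-451 at −0.51 and −0.03, and miR-486 at −0.01 and 0.47. The endothelial list (2 of 2) summed to 16284, 10079.9 and 12169 CPM after TMM and to 19568, 7786 and 13111 CPM on totals. The stellate cell, fibroblast and smooth muscle list (5 of 5) summed to 49324, 38412 and 40349 CPM after TMM and to 59269, 29669 and 43473 CPM on totals. In the sums of both of these lists the Large White library was the lowest on either scale. Not every entry followed. miR-199a-3p was at 6862, 6850 and 6338 CPM after TMM, lowest in wild boar liver. For wild boar over Large White after TMM, miR-143-3p was at 0.02, miR-145-5p at 0.10, miR-214 at 0.20 and miR-199a-5p at 0.22. On library totals the median over all miRNAs was itself 0.60 for Enshi black and 0.46 for wild boar over Large White. Of the list for biliary and other epithelium, 2 of 7 entries were found, miR-429 and miR-31, and they summed to 23.8, 14.3 and 20.6 CPM after TMM and to 28.6, 11.03 and 22.2 CPM on totals, far below miR-192. None of the markers found was at 0 in all libraries. The part of cell composition in the differences of the members was not tested.

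Of 16 other miRNAs known to respond to p53, 11 were found and 9 compared. For Enshi black over Large White 0 of 9 were 2-fold higher and 1 was lower after TMM, beside 2.88% of all miRNAs higher and 10.1% lower, and the list had a median log2 ratio of −0.06 beside −0.04 over all miRNAs. The lower one was miR-22-3p at −1.63, while miR-143-3p had 0.43 and miR-16 0.57. On library totals 3 of the 9, miR-16, miR-23a and miR-143-3p, were 2-fold higher, at 1.21, 1.23 and 1.07, beside 27.4% of all miRNAs that were higher on that scale, which is near the share of the list. There miR-22-3p was at −0.99, and the median was 0.58 beside 0.60. For wild boar over Large White 1 of 9, again miR-22-3p at −1.50, was lower and 0 were higher after TMM, beside 13.5% of all miRNAs lower and 11.5% higher, with a median of 0.18 beside −0.02. On library totals miR-22-3p had a ratio of −1.02 and miR-107 was higher at 1.07, beside 9.13% of all miRNAs lower and 21.6% higher, with a median of 0.66 beside 0.46. None of the 9 was 2-fold apart for Enshi black over wild boar on either scale, beside 12.5% of all miRNAs after TMM and 10.6% on library totals, and the median was 0.15 beside −0.01 after TMM and 0.30 beside 0.15 on library totals. miR-34a, the best known p53 target among miRNAs, had log2 ratios after TMM of −0.43, 0.28 and −0.71 for Enshi black over Large White, wild boar over Large White and Enshi black over wild boar. On library totals these were 0.21, 0.76 and −0.55, so the sign of the first depended on the scale.

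A list of 15 other miRNAs was taken as enriched in liver. No other tissue was read here, so their enrichment was not checked. Of these, 13 were found and compared, and none of them was from the clusters. The hepatocyte markers miR-122 and miR-885-5p are among them, as is miR-22-3p of the p53 list, so the lists are not separate evidence. For Enshi black over Large White 3 of 13 were lower and 0 higher after TMM, beside 10.1% of all miRNAs lower and 2.88% higher, and the median was −0.48 beside −0.04 over all miRNAs. The lower ones were miR-101 at −1.67, miR-22-3p at −1.63 and miR-885-5p at −1.49, and miR-122 and miR-21 had −0.91 and −0.48. On library totals miR-101, at −1.04, was the 1 miRNA of 13 past 2-fold, beside 2.88% of all miRNAs lower and 27.4% higher, and the list had a median of 0.16 beside 0.60 over all miRNAs. For wild boar over Large White 4 of 13 were lower and 1 higher after TMM, beside 13.5% of all miRNAs lower and 11.5% higher, with a median of −0.55 beside −0.02. The lower ones were miR-101 at −1.61, miR-22-3p at −1.50, miR-30e-5p at −1.21 and miR-21 at −1.17, and miR-365-3p was higher at 1.09. On library totals 2 were lower, miR-101 and miR-22-3p (−1.13 and −1.02), and 2 higher, miR-365-3p and miR-455-3p (1.57 and 1.08), beside 9.13% and 21.6% of all miRNAs, with a median of −0.07 beside 0.46. For Enshi black over wild boar miR-365-3p alone passed 2-fold after TMM, at −1.08, beside 12.5% of all miRNAs apart in either direction, and was at −0.92 on library totals, where 0 of 13 passed beside 10.6% of all miRNAs. The median was −0.13 beside −0.01 after TMM and 0.03 beside 0.15 on library totals. miR-194a and miR-194b-5p, at −0.93 and −0.91 for Enshi black over Large White, were close to miR-122 on the TMM scale, and miR-215 lay nearest to miR-885-5p and miR-22-3p among these miRNAs in that pair.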

How the data were processed

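Gel-selected small RNA (14 to 40 nucleotides) was read on an Illumina HiSeq, according to the labels' protocols. Sscrofa 10.2 is the build named in the labels (per the submitters' processing notes). For the aligner, the counter and the annotation, the answer is: not given in the sources used here. Per the file headers, the authors deposited read counts per mature miRNA and precursor. As deposited by the authors, each is an expected count, with fractions where a read was divided (75.7% to 78.8% of rows were whole). The RPM values the authors deposited equal the read count over the library sum times 1000000 and were not used.

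Counts were summed per mature name, 6 names that repeat another's reads were removed, and sums were rounded, although whole counts had been planned for. TMM factors (edgeR 4.0.16, R 4.3.3) came from all 405 miRNAs. Ratios have exact conditional-binomial 95% intervals, shares Clopper-Pearson and ratios of ratios Woolf intervals. The interval code was checked on simulated data. A miRNA with a mean of at least 10 CPM counted as higher or lower past 2-fold if its interval was clear of 1. The named miRNAs were the 4 members, the other arms of their precursors, the 5 nearest in pattern to each member (log2 of CPM plus 1), and in each list the 3 most abundant and those past the rule where 5 or fewer were. Others, such as miR-34a and the list members that moved on library totals, were named after their values were seen. Members and lists were chosen with earlier results of these data known. Alternatives were other scalings, DESeq2 1.42.0 size factors among them, other minimums, a 4-fold threshold, thinning, unrounded counts and sums over a seed family. No mature sequence was used here.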

Additional observations from a re-analysis of the deposited data

How the results depend on the processing

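No paired analysis was possible because each breed has 1 library, and no replicate could be left out. Against 2 members past 2-fold for Enshi black over Large White, 0 were past it on library totals, on totals without miR-122, on totals without the 4 members and per read of miR-122 (chosen after seeing the data), all of which shift every ratio of the pair upwards, and 0 at a 4-fold threshold; DESeq2 size factors kept the count at 2. For wild boar over Large White the count of 1 became 0 at 4-fold only. Over all miRNAs, the 27 past 2-fold in either direction for Enshi black over Large White became 63 on library totals, 45 without miR-122, 59 without the 4 members, 52 with no minimum level and 13 at a minimum of 100 CPM. With no minimum and at 100 CPM, the 52 for wild boar over Large White became 84 and 31, and the 26 for Enshi black over wild boar became 50 and 14, where more or fewer miRNAs were compared. As a share of reads without miR-122 the members held 10.4%, 16.02% and 13.05% in Enshi black, Large White and wild boar livers. The family ratio from miR-215 and miR-194b-5p alone was 2.09, 3.06 and 1.42 in place of 1.03, 1.27 and 0.903. Among the members, values that changed sign were the log2 ratio of miR-194a for wild boar over Large White (0.0063 on library totals, 0.0743 per miR-122 read), of miR-194b-5p for Enshi black over Large White (0.0016 per miR-122 read) and over wild boar (0.0707), of miR-192 for Enshi black over wild boar (0.102 per miR-122 read), and of miR-215 for Enshi black over wild boar when summed with miR-192 (−0.26, which is then a value of miR-192). Of the list medians, that of the liver-enriched list turned from −0.48 to 0.16 on library totals and 0.12 without the 4 members for Enshi black over Large White, and from −0.13 to 0.03 and 0.01 for Enshi black over wild boar. That of the p53 list turned from −0.06 to 0.58 on totals, 0.41 without miR-122, 0.016 with DESeq2 size factors, 0.54 without the 4 members and 0.058 at 100 CPM for Enshi black over Large White, and from 0.15 to −0.12 with no minimum for Enshi black over wild boar. All 12 log2 ratios of the members stayed within their counting intervals when libraries were thinned to 7343033 reads, the Large White total. The other totals were 7730934 and 7824836, so few reads were removed and the ratios could hardly have moved. Depth limits miR-194b-5p most, at 674 to 774 reads.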
